A study of Mus musculus with 28 samples.

Results

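The genes described here belong to the oligodendrocyte lineage and to myelin. They are 35 gene symbols chosen by name, which cover the proteins of the myelin sheath, enzymes of its lipids and metabolism, the connexins and transcription factors of oligodendrocytes, and genes of the precursor stages. A row was found by symbol for 33 of them, and all 33 passed the filter on dim rows and stand among 15781 genes tested. Trf and Evi2a were not analysed here.

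Hippocampal RNA was measured on 28 whole-transcript microarrays. The mice were NSG, an immunodeficient strain without mature T, B and natural killer cells, and had a mean age of 14 months. All groups were injected 6 times intravenously, 7 arrays with phosphate-buffered saline (PBS), the vehicle, and 7 each with human cord plasma, human young plasma or human old plasma. Cord plasma differs from the others in its source as well as in donor age, and the number of donors is not given in the sources used here. The comparisons ask if expression in the aged hippocampus differs after human plasma, and with the age of the donors. No label ties an array to an animal of its own, so p-values rest on the spread between arrays, part of which may be technical.

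Oligodendrocytes arise from dividing precursors that carry the receptor Pdgfra and the proteoglycan Cspg4. On leaving the cycle they pass through a stage marked by Gpr17, Enpp6 and Bcas1, and then wrap axons in compact membrane that is rich in galactolipids and in a small set of proteins, among them Mbp. Olig2 and Sox10 are present along the whole lineage, and Myrf is needed for the transcription of myelin genes in maturing cells. In the hippocampus myelin is densest in the fibre tracts, the alveus and the fimbria. Each array measures bulk tissue, so fewer oligodendrocytes and less RNA per oligodendrocyte cannot be told apart.

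No gene of the lineage passed the test after any of the plasmas. At an adjusted p of 0.05 (limma over all 28 arrays, Benjamini-Hochberg over 15781 genes), 0 of 33 members passed in each of 7 comparisons and in the F-test over the 4 groups. The share of all genes past that threshold was 0% for cord, young and old plasma against PBS, for cord against old plasma and for cord against young plasma. It was 0.00634% for young against old plasma, 0.019% for the 3 plasma groups averaged against PBS and 0.00634% for the F-test. What the arrays did show was variation shared by the mature myelin genes from array to array within the groups, and 1 young plasma array in which 13 of the 33 members lay lower than in any other array.

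Array medians lay between 4.96 and 5.09 on the log2 scale. Markers of hippocampal neurons averaged 8.23 to 8.84 over 11 genes on all arrays, and markers of choroid plexus and ependyma, tissue that borders the hippocampus, spanned 5.50 to 7.71 over 14 genes. Young plasma replicate 7 stood apart: it was the lowest of the 28 arrays for 15.0% of the genes tested and the highest for 12.7%, against at most 8.22% and 6.56% for any other array. PBS replicate 6 had a mean of 7.80 over 12 thalamus markers, and the other arrays had 6.61 to 6.88. Markers of cortex and striatum had a median difference from PBS of 0.091 with cord plasma, 0.145 with young plasma and 0.082 with old plasma over 14 genes. Those of choroid plexus and ependyma had -0.190, -0.266 and -0.146 over 14 genes, and those of thalamus -0.106, -0.149 and -0.142 over 12. The thalamus differences include PBS 6. By the median array, the thalamus mean was 6.80 with PBS and 6.79, 6.82 and 6.78 with cord, young and old plasma. Differences with such markers as a covariate are given for Lhfpl3.

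Promoter sequences of 3 sheath genes that moved together over the arrays, and of 2 precursor genes that did not move with them, are shown first. Each is the 250 bases before a transcription start, 5′ to 3′ on the gene's strand, from RefSeq on GRCm38.p6, a build named here for the reference, since the files give none. Capitals mark matches on either strand to the SOX motifs ACAAAG and ACAATG and to the E-box CANNTG, the kinds of site that Sox10 and the Olig proteins can bind.
Mog, myelin oligodendrocyte glycoprotein, chr17:37023399-37023648, minus strand: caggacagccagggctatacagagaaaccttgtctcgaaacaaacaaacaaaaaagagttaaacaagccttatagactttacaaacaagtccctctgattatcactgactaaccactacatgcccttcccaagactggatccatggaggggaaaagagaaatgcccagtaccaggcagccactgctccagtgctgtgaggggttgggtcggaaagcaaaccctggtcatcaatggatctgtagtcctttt
Cnp, a cyclic nucleotide phosphodiesterase of non-compact myelin, chr11:100574689-100574938, plus strand: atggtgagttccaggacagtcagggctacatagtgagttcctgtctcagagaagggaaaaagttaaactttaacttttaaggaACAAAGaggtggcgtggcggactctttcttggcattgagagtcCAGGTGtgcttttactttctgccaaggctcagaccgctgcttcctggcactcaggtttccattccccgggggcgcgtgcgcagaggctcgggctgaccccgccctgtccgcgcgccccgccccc
Ermn, the cytoskeletal protein ermin, chr2:58052865-58053114, minus strand: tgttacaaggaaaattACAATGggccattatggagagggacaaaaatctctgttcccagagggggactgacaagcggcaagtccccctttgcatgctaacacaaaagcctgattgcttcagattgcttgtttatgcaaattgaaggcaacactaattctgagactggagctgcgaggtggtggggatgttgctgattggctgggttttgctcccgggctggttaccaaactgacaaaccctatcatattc
Pdgfra, the receptor of precursors for platelet-derived growth factor, chr5:75152001-75152250, plus strand: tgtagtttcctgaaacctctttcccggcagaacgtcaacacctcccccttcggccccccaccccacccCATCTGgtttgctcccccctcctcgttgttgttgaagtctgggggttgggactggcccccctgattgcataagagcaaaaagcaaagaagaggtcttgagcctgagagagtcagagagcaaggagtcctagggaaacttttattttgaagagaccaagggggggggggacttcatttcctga
Cspg4, a proteoglycan of precursors and pericytes, chr9:56864854-56865103, plus strand: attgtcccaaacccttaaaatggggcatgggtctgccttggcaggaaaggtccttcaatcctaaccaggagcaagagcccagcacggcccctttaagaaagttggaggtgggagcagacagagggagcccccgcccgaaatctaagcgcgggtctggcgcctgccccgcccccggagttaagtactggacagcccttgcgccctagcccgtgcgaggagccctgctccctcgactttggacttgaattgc

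The Cnp window held 1 SOX match and 1 E-box, Ermn 1 SOX match, Pdgfra 1 E-box, and the Mog and Cspg4 windows neither. The window of the precursor gene Lhfpl3, whose sequence is not printed, held 0 SOX matches and 2 E-boxes. No SOX match in these windows overlapped an E-box. Windows were found for 25 members, 33 windows in all, of which 13 (39.4%) held a SOX match, against 25.2% of all 32851 windows in the table. An E-box was in 23 of the 33 (69.7%) and in 66.2% of all windows. Of the 25 members 21 had 1 window and the others several, so the 33 windows are not 33 separate genes. Such short motifs occur often by composition alone, and a match is no evidence of binding.

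The arrays of all 4 groups overlapped for each protein of the myelin membrane and sheath. Mbp, myelin basic protein, which joins the inner faces of the wrapped membrane, had lowest, median and highest log2 intensities of 8.98, 9.06 and 9.17 with PBS, 8.93, 9.07 and 9.14 with cord plasma, 8.86, 9.04 and 9.29 with young plasma, and 8.98, 9.17 and 9.19 with old plasma. All groups overlapped, and both the highest value (young plasma 5) and the lowest (young plasma 7) came from young plasma. Mog, a protein of the outermost membrane, was at 8.32, 8.53 and 8.68 with PBS, 8.10, 8.55 and 8.81 with cord plasma, 7.91, 8.36 and 8.82 with young plasma, and 8.03, 8.54 and 8.78 with old plasma, in the same order of lowest, median and highest. Young plasma 1 was the lowest array and young plasma 5 the highest, and each plasma group reached below the lowest PBS array.

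Mag, an adhesion molecule that faces the axon, had 9.02, 9.20 and 9.36 with PBS, 8.91, 9.32 and 9.57 with cord plasma, 8.89, 9.27 and 9.72 with young plasma, and 8.82, 9.34 and 9.61 with old plasma. The arrays of each plasma group spread beyond the PBS arrays on both sides. Mobp, a small basic protein of compact myelin, had 10.33, 10.47 and 10.64 with PBS, 9.97, 10.50 and 10.61 with cord plasma, 10.04, 10.53 and 10.88 with young plasma, and 10.33, 10.60 and 10.90 with old plasma. Its highest array was old plasma 1 and its lowest cord plasma 2, again with overlap of all groups. For Opalin, a transmembrane glycoprotein of oligodendrocytes, the values were 6.57, 6.69 and 7.03 with PBS, 6.56, 6.98 and 7.21 with cord plasma, 5.79, 6.90 and 7.39 with young plasma, and 6.35, 6.84 and 7.29 with old plasma. The single value of 5.79, in young plasma 7, lay below every other array, and the remaining arrays of that group spanned 6.51 to 7.39.

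The other sheath genes were Cnp, Cldn11, a claudin of the myelin tight junctions, Ermn, Mal, a raft protein of membrane sorting, and the tetraspanin Tspan2. Their group means differed from PBS by between -0.12 (Mal with cord plasma) and 0.12 (Cldn11 with old plasma). The mean over the 10 sheath genes was 9.13 ± 0.10 (SD, n = 7) with PBS, 9.12 ± 0.19 with cord plasma, 9.10 ± 0.26 with young plasma and 9.19 ± 0.20 with old plasma. Single arrays reached from 8.77 in young plasma 1 to 9.45 in young plasma 5, so the range inside that group exceeded every distance between group means.

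**Figure D1:**
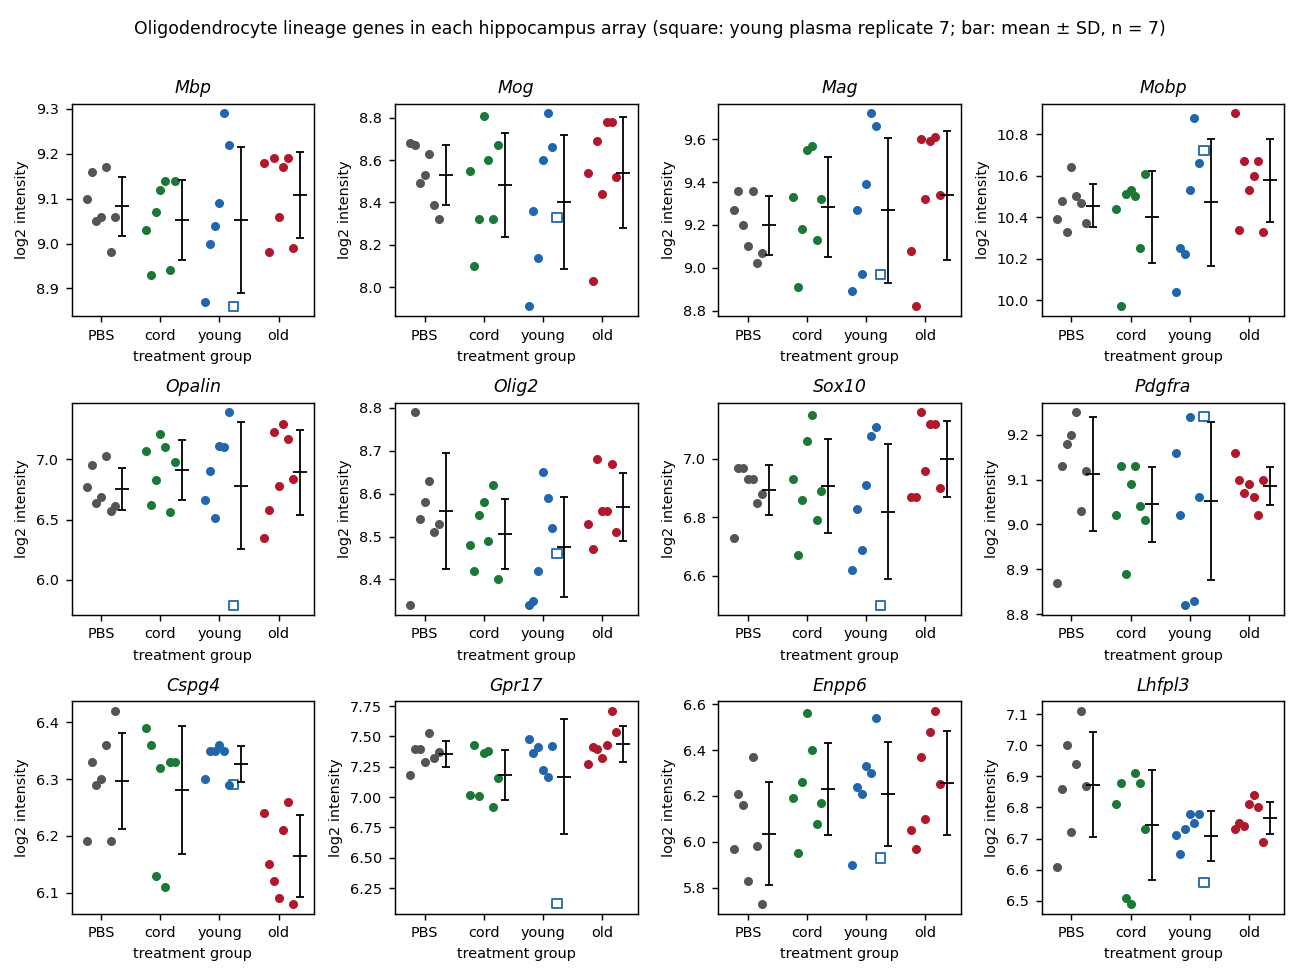
Log2 intensity of 12 genes of the lineage in each of the 28 arrays, by treatment group, with the mean and SD (n = 7) as a bar beside the points, and young plasma replicate 7 as an open square. All groups overlap in each panel except Cspg4, where the young plasma arrays (6.29 to 6.36) lie above the old plasma arrays (6.08 to 6.26).

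Lipid and metabolic enzymes of the oligodendrocyte overlapped between all groups too. Enpp6, a choline phosphodiesterase of newly forming oligodendrocytes, had 5.73, 5.98 and 6.37 with PBS, 5.95, 6.19 and 6.56 with cord plasma, 5.90, 6.24 and 6.54 with young plasma, and 5.97, 6.25 and 6.57 with old plasma. The medians of the plasma groups lay above that of PBS, yet PBS 5, at 6.37, exceeded the median of each plasma group. Sirt2, a deacetylase abundant in myelin, had 10.05, 10.11 and 10.23 with PBS, 10.12, 10.19 and 10.23 with cord plasma, 10.10, 10.23 and 10.38 with young plasma, and 10.17, 10.24 and 10.30 with old plasma. PBS 2 and PBS 5, at 10.23, were level with the young plasma median, and all groups overlapped.

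Ugt8a, which makes galactosylceramide, Fa2h, which hydroxylates the fatty acids of such lipids, Aspa, which cleaves N-acetylaspartate, Qdpr, a pteridine reductase, and Car2, a carbonic anhydrase, had differences from PBS between -0.18 (Ugt8a with young plasma) and 0.17 (Fa2h with old plasma). A second, dimmer row of Qdpr differed in sign from the one used, at 0.10 (SE 0.09) against -0.03 (SE 0.08) with cord plasma. Its mean of 4.68 was at the filter value for dim rows. The connexins couple oligodendrocytes to each other and to astrocytes. Gjb1 had 5.84, 6.06 and 6.33 with PBS, 6.08, 6.17 and 6.28 with cord plasma, 5.82, 6.11 and 6.30 with young plasma, and 5.97, 6.15 and 6.31 with old plasma. Gjc3 had 9.16, 9.29 and 9.41 with PBS, 9.07, 9.41 and 9.58 with cord plasma, 8.54, 9.32 and 9.55 with young plasma, and 9.02, 9.37 and 9.56 with old plasma. In both, young plasma 7 was the lowest array and all groups overlapped.

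Among the transcription factors, Olig1 and Olig2, basic helix-loop-helix factors of the whole lineage, varied little. Olig1 had 8.41, 8.48 and 8.68 with PBS, 8.48, 8.61 and 8.64 with cord plasma, 8.26, 8.57 and 8.63 with young plasma, and 8.52, 8.59 and 8.69 with old plasma. The cord and old plasma arrays were tightly grouped, and young plasma 3, at 8.26, was the lowest of the 28. Olig2 had 8.34, 8.54 and 8.79 with PBS, 8.40, 8.49 and 8.62 with cord plasma, 8.34, 8.46 and 8.65 with young plasma, and 8.47, 8.56 and 8.68 with old plasma. PBS held its highest array and, level with young plasma 1, its lowest. Sox10, an HMG-box factor that acts on myelin genes, had 6.73, 6.93 and 6.97 with PBS, 6.67, 6.89 and 7.15 with cord plasma, 6.50, 6.83 and 7.11 with young plasma, and 6.87, 6.96 and 7.16 with old plasma. All old plasma arrays were at 6.87 or above, and the 3 lowest young plasma arrays were at 6.50, 6.62 and 6.69, the first of them replicate 7.

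Nkx2-2, a homeobox factor of differentiating precursors, had 5.30, 5.54 and 5.77 with PBS, 5.46, 5.65 and 5.72 with cord plasma, 5.42, 5.52 and 5.64 with young plasma, and 5.50, 5.61 and 5.69 with old plasma. The PBS group held both the lowest and the highest array. Myrf and Nkx6-2, a homeobox factor of mature oligodendrocytes, differed from PBS by between -0.05 and 0.05 in the 3 plasma groups.

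Of the precursor genes, Cspg4 alone had a pair of groups that did not overlap. Pdgfra had 8.87, 9.13 and 9.25 with PBS, 8.89, 9.04 and 9.13 with cord plasma, 8.82, 9.06 and 9.24 with young plasma, and 9.02, 9.09 and 9.16 with old plasma. The old plasma arrays lay within the range of the others. Cspg4 had 6.19, 6.30 and 6.42 with PBS, 6.11, 6.33 and 6.39 with cord plasma, 6.29, 6.35 and 6.36 with young plasma, and 6.08, 6.15 and 6.26 with old plasma. Every old plasma array was below every young plasma array, and both groups overlapped PBS and cord plasma. Lhfpl3, a tetraspan membrane protein enriched in precursors, had 6.61, 6.87 and 7.11 with PBS, 6.49, 6.81 and 6.91 with cord plasma, 6.56, 6.73 and 6.78 with young plasma, and 6.69, 6.75 and 6.84 with old plasma. PBS 6 was the highest array, and the PBS and cord plasma arrays were the most spread.

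Gpr17, a receptor of cells committed to differentiate, had 7.18, 7.37 and 7.53 with PBS, 6.92, 7.16 and 7.43 with cord plasma, 6.12, 7.36 and 7.48 with young plasma, and 7.27, 7.41 and 7.71 with old plasma. Young plasma 7, at 6.12, lay far below the next array of its group, at 7.17. Bcas1, a protein of oligodendrocytes that are starting to myelinate, had 6.45, 6.59 and 6.77 with PBS, 6.35, 6.64 and 6.75 with cord plasma, 6.27, 6.52 and 6.79 with young plasma, and 6.33, 6.70 and 6.81 with old plasma. Its groups overlapped almost fully. The actin-severing protein Gsn, the lipocalin Apod and Plekhh1 complete the set. Apod had the largest SD within groups of any member, 0.37, from 8.95 in young plasma 3 to 10.51 in young plasma 7. Its 2 other rows, both dimmer, gave differences from PBS of 0.13 and 0.11 with cord plasma where the row used gave -0.07. With young plasma they gave 0.26 and 0.25 against 0.05, and with old plasma 0.10 and 0.10 against -0.09.

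Cord plasma against PBS had 0 of 33 members at an unadjusted p under 0.05, against 8.74% of all genes (4.96% higher and 3.78% lower). That count was 1 or 2 in 10 of 41 other settings. Lhfpl3 was lower at -0.15 (SE 0.07, adjusted p = 0.526) after centring each array on its median and at -0.15 (SE 0.07, adjusted p = 0.663) without PBS 4, and Gpr17 at -0.17 (SE 0.08, adjusted p = 0.452) without young plasma 7. The median difference of the members was -0.025 on the log2 scale, and 13 of 33 were above 0, beside a median of 0.006 and 53.3% above 0 for all genes. Lhfpl3 differed by -0.13 (SE 0.07, adjusted p = 0.612), Enpp6 by 0.19 (SE 0.11, adjusted p = 0.634) and Nkx2-2 by 0.08 (SE 0.05, adjusted p = 0.694), the smallest p-values among the members. Without cord plasma replicate 2, whose array was the lowest of the 28 for 4 members, the median was 0.015. The authors' deposited table had 0 members under 0.05, with 9.27% of its rows under it.

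With young plasma, 1 member was higher and 1 lower than with PBS at an unadjusted p under 0.05, together 2 of 33, against 11.2% of all genes (6.07% higher and 5.11% lower). The lower one was Lhfpl3, at -0.16 (SE 0.07, adjusted p = 0.364), with a 95% interval of -0.30 to -0.02. The higher one was Sirt2, at 0.09 (SE 0.04, adjusted p = 0.425), whose highest array was young plasma 7. Without that array neither was under 0.05, with Lhfpl3 at -0.14 (SE 0.07, adjusted p = 0.438) and Sirt2 at 0.07 (SE 0.04, adjusted p = 0.545). Lhfpl3 had its highest array in PBS 6, the array high in thalamus markers, and was at -0.12 (SE 0.07, adjusted p = 0.503) without it. Over the 28 arrays Lhfpl3 had r = 0.52 and rho = 0.25 with the thalamus markers and r = 0.60 and rho = 0.52 with 9 neuronal markers, group means removed, and 0.44 and 0.71 (r) without PBS 6. With the thalamus markers as a covariate its difference was -0.12 (SE 0.06, adjusted p = 0.472), and with the cortex and striatum markers -0.26 (SE 0.08, adjusted p = 0.208). The part of the neuronal markers was not tested. Enpp6 differed by 0.17 (SE 0.11, adjusted p = 0.576). Over the members the median was -0.041, with 13 above 0, beside -0.002 for all genes. Without young plasma 7 it was -0.011. In the authors' deposited table, Lhfpl3 alone of the members was under 0.05, at an unadjusted p of 0.0381 from a two-group test, where 8.16% of rows were.

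Old plasma against PBS showed 1 member higher and 1 lower at an unadjusted p under 0.05, against 10.8% of all genes (6.62% higher and 4.15% lower). Cspg4 was the lower one, at -0.13 (SE 0.05, adjusted p = 0.299), which is the smallest adjusted p of a member in any comparison. Its interval ran from -0.22 to -0.04, and leaving out each array in turn gave -0.15 to -0.11. Sirt2 was the higher one, at 0.10 (SE 0.04, adjusted p = 0.393), and Enpp6 differed by 0.22 (SE 0.11, adjusted p = 0.496). The member median was 0.034, with 24 of 33 above 0, beside 0.005 and 52.5% for all genes. After centring each array on its median, 17 members and 39.3% of all genes were above 0, and Sirt2, at 0.07 (SE 0.04, adjusted p = 0.535), was no longer under 0.05. The authors' deposited table had Cspg4 and Sirt2 under 0.05, with 10.7% of its rows.

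The 3 comparisons with PBS share the same 7 PBS arrays, so a gene that is high or low in those arrays enters all of them. Sirt2 differed from PBS by 0.04, 0.09 and 0.10 with cord, young and old plasma. Enpp6 differed by 0.19, 0.17 and 0.22, and Lhfpl3 by -0.13, -0.16 and -0.11. With the plasma groups averaged, these were the members with the smallest p. Lhfpl3 was at -0.13 (SE 0.06, adjusted p = 0.335), Sirt2 at 0.08 (SE 0.04, adjusted p = 0.369) and Enpp6 at 0.19 (SE 0.09, adjusted p = 0.389). Without PBS 6 Lhfpl3 was at -0.09 (SE 0.06, adjusted p = 0.584), with the thalamus markers as a covariate at -0.09 (SE 0.05, adjusted p = 0.562) and with the cortex and striatum markers at -0.20 (SE 0.06, adjusted p = 0.138). Over the 3 plasma groups together 2 members were higher and 1 lower at an unadjusted p under 0.05, against 12.4% of all genes.

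**Figure D2:**
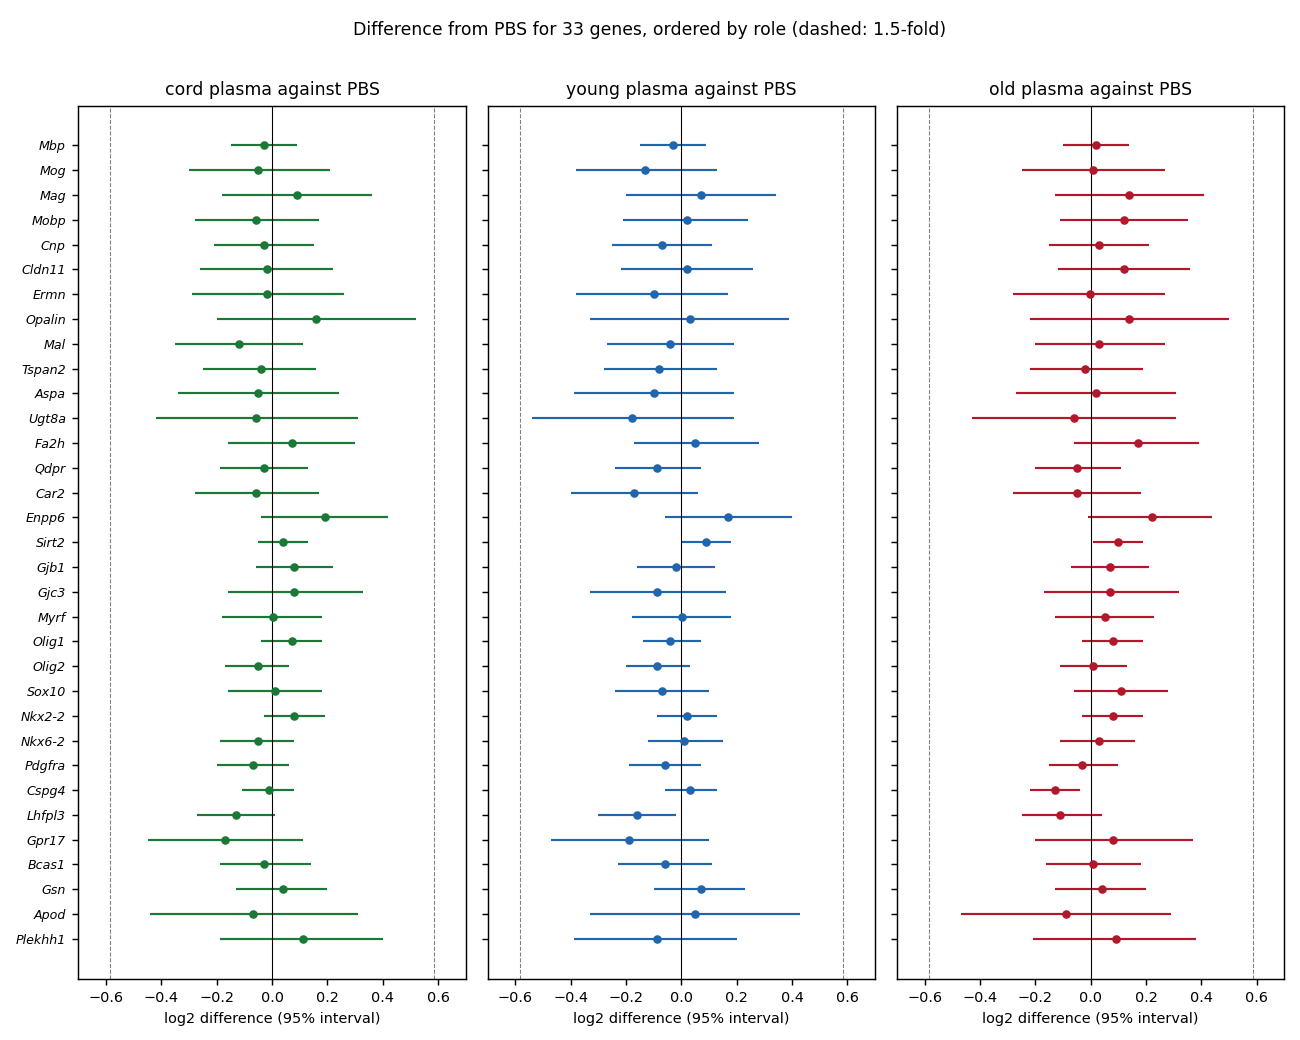
Difference of each plasma group from PBS (log2 scale, point) with its 95% interval (line) for the 33 genes, ordered by role from sheath proteins at the top. Every interval lies between the dashed lines, which mark 1.5-fold in either direction, and most cross 0.

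Between plasmas, the members sat lower with young than with old plasma by a median of -0.094, with 30 of 33 below 0, beside a median of -0.009 for all genes. Without young plasma 7 the median was -0.040, with 26 below 0, and after median centring of all 28 arrays it was -0.064, with 28 below 0. Centring turned the background of this comparison, from 44.5% of all genes above 0 to 62.6%, with an all-gene median of 0.021. Without centring, 10 of 12 microglial, 7 of 8 endothelial and 8 of 11 astrocytic markers were below 0 too. So were 11 of 14 choroid plexus, 8 of 11 hippocampal neuron, 6 of 12 thalamus and 5 of 9 neuronal markers. Meningeal fibroblast markers had 2 of 10 below 0, and those of cortex and striatum 1 of 14. The members vary together, so 30 of 33 is no count of separate observations. At an unadjusted p under 0.05, 1 member was higher and 2 lower, against 6.53% of all genes (3.26% higher and 3.28% lower). The lower ones were Sox10, at -0.18 (SE 0.08, adjusted p = 0.756), and Olig1, at -0.12 (SE 0.05, adjusted p = 0.756). Without young plasma 7 Sox10 was at -0.13 (SE 0.08, adjusted p = 0.899) and Olig1 at -0.13 (SE 0.06, adjusted p = 0.872). After centring neither was under an unadjusted 0.05, with Sox10 at -0.15 (SE 0.08, adjusted p = 0.709) and Olig1 at -0.09 (SE 0.05, adjusted p = 0.763).

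The higher one was Cspg4, at 0.16 (SE 0.05, adjusted p = 0.648), with an interval of 0.07 to 0.26. The 2 groups did not overlap, as for 0.0951% of all genes. In the other pairs of groups 0 members were free of overlap, against 0.196% of all genes for cord plasma and PBS, 0.215% for young plasma and PBS, 0.323% for old plasma and PBS, 0.076% for cord and old plasma, and 0.0824% for cord and young plasma. Leaving out each array in turn gave 0.15 to 0.18, and without young plasma 7 it was 0.17 (SE 0.05, adjusted p = 0.765). Over the 4 groups its adjusted p was 0.393, with 1 member and 9.83% of all genes at an unadjusted p under 0.05. Cspg4 is also made by pericytes, whose part in its difference was not tested.

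Cord against old plasma had 1 member higher and 0 lower at an unadjusted p under 0.05, against 4.2% of all genes (1.88% higher and 2.33% lower). Cspg4 was at 0.12 (SE 0.05, adjusted p = 0.999), Gpr17 at -0.26 (SE 0.14, adjusted p = 0.999) and Mobp at -0.18 (SE 0.11, adjusted p = 0.999). Young plasma 7 is in neither group but enters the shared estimate of the spread. Without it Gpr17 was at -0.26 (SE 0.08, adjusted p = 0.812). In that fit 1 member was higher and 1 lower at an unadjusted p under 0.05, as were 363 and 453 of the 15781 genes. The member median was -0.037, beside -0.001 for all genes, and it was 0.004 without cord plasma 2. Cord against young plasma had 0 of 33, against 7.22% of all genes (3.98% higher and 3.24% lower). Olig1 was at 0.11 (SE 0.05, adjusted p = 0.692), Gjb1 at 0.11 (SE 0.07, adjusted p = 0.735) and Gjc3 at 0.17 (SE 0.12, adjusted p = 0.752). Without young plasma 7 Gjc3 was at 0.06 (SE 0.10, adjusted p = 0.92) and Olig1 at 0.12 (SE 0.06, adjusted p = 0.768). In that fit Olig1 was under an unadjusted 0.05, as were 548 genes higher and 472 lower of the 15781. The median of 0.033 turned to -0.010 without that array.

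These intervals bound what the arrays could have missed. In each of the 7 comparisons over all 28 arrays, the 95% interval of all 33 members lay inside a change of 1.5-fold either way. That bound was chosen after the values were seen, and only the row used for each gene was counted. The widest reached 0.68-fold and 1.44-fold, both for young against old plasma. Standard errors ran from 0.04 to 0.19 on the log2 scale. The intervals hold for 1 gene at a time and are not widened for the number of genes. Without PBS replicate 4, the interval of Ugt8a for young plasma against PBS reached -0.60 on the log2 scale, outside the 1.5-fold bound. A dimmer row of Apod, not counted here, differed by 0.26 (SE 0.18) with young plasma against PBS.

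The mature myelin genes varied together from array to array inside the groups. After group means were removed, the 45 pairs of the 10 sheath genes had Pearson correlations over the 28 arrays from 0.20 to 0.95, with a median of 0.77. Without young plasma 7 the median was 0.86 and the range 0.46 to 0.95. Arrays share a hybridisation, a dissection and an RNA extract across all their genes, so these values describe the arrays and carry no test. Mog and Mag had r = 0.92 and rho = 0.91, with 0.87 among the PBS arrays, 0.92 with cord plasma, 0.93 with young plasma and 0.91 with old plasma. Leaving out the 2 arrays farthest from the median of Mog gave 0.89. Other sheath pairs were less even between groups. Mog and Mobp had 0.22 with PBS, 0.82 with cord plasma, 0.86 with young plasma and 0.54 with old plasma. Mog and Opalin had 0.79, 0.90, 0.55 and 0.69 in the same order.

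The spread of most sheath genes was large beside that of other genes. The SD within groups was 0.23 at the median of the 10 sheath genes and 0.20 at that of all 33 members, against 0.13 over all genes tested. Of the 10 sheath genes, 7 had an SD above that of 90% of genes. Mbp did not, with an SD of 0.11, above that of only 37.7% of genes. Of the 33, 16 had an SD above that of 90% of genes, and 13 had it without young plasma 7. None of the 6 transcription factors did, with young plasma 7 or without it. Genes were not matched on intensity for this. In PBS the median SD of the sheath genes was 0.12, and it was 0.23 with cord plasma, 0.31 with young plasma and 0.22 with old plasma, beside 0.116, 0.108, 0.131 and 0.108 for all genes. The young plasma value was also 0.31 without replicate 7. Whether spreads differ between groups was not tested.

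**Figure D3:**
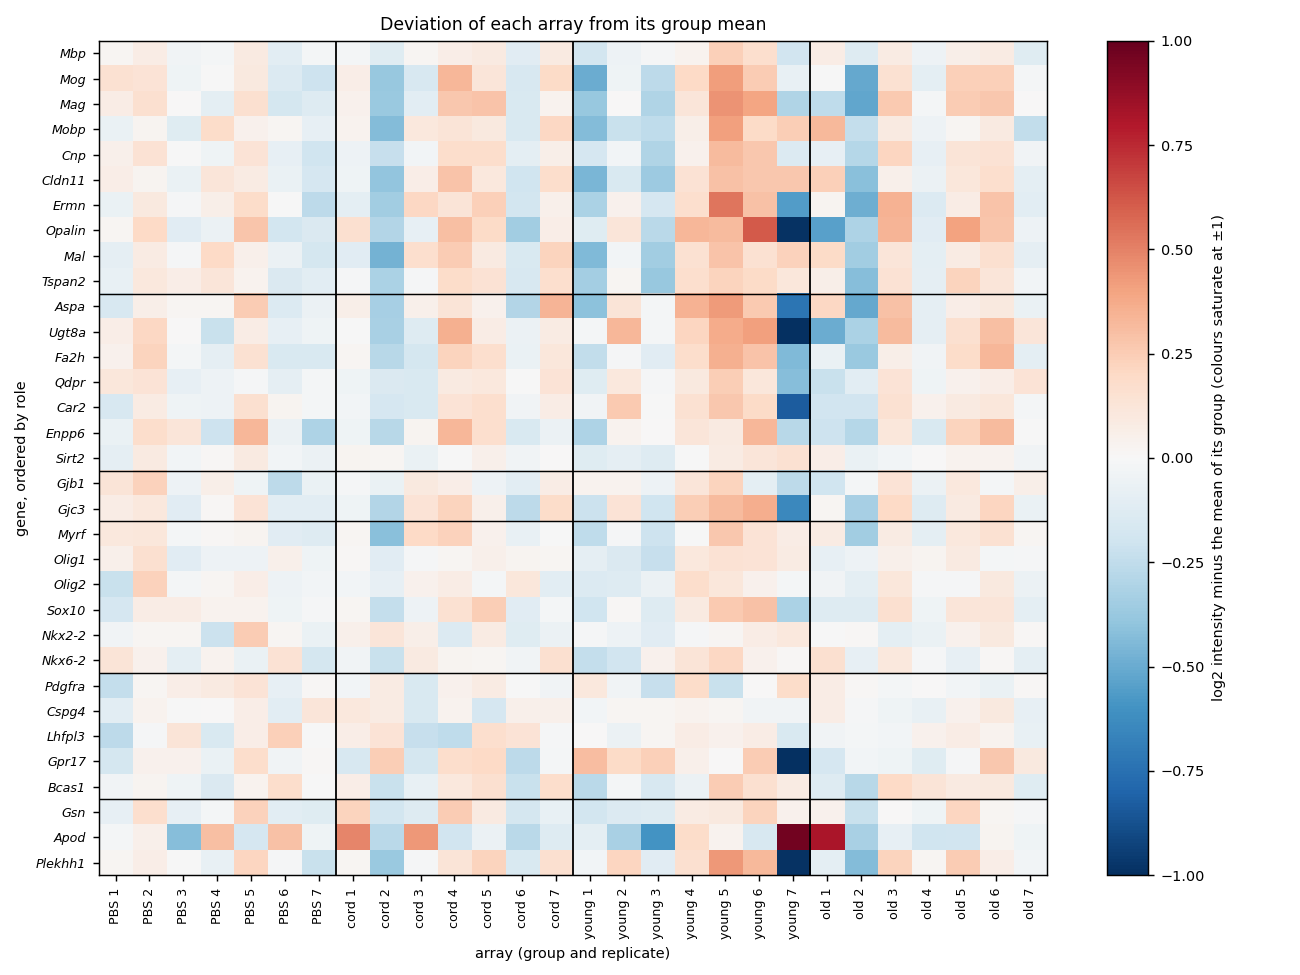
Deviation of each array from the mean of its group for the 33 genes (rows, ordered by role) over the 28 arrays (columns), on the log2 scale. Blue columns across the sheath genes mark arrays such as cord 2, young 1, young 3 and old 2, red ones arrays such as young 5, and young 7 mixes deep blue and red.

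Other roles followed the sheath genes to different degrees. The mean of the 6 transcription factors had r = 0.92 and rho = 0.89 with the mean of the sheath genes, the 7 enzymes r = 0.79 (0.92 without young plasma 7) and the 2 connexins r = 0.78. Single factors differed: Myrf had 0.87, Sox10 0.84, Olig1 0.61, Olig2 0.54 and Nkx2-2 0.10. The 5 precursor and committed genes had r = 0.32 as a mean. Within them Bcas1 was at 0.76, while Pdgfra was at -0.11, Cspg4 at -0.01 and Lhfpl3 at -0.09. Over the 30 pairs of a sheath gene with 1 of those 3 precursor genes the median was -0.04, with a range of -0.31 to 0.15. The 3 precursor genes hardly moved with each other either, at 0.15 to 0.17 over their 3 pairs.

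Gpr17 shows how much 1 array can make of a correlation. Its r with Car2 was 0.78 over 28 arrays and 0.27 without young plasma 7, with rho = 0.52. With Mog it was 0.03 and -0.05. Among markers of other cells, the mean of the sheath genes had r = 0.43 with 12 microglial genes, 0.41 with 8 endothelial, 0.36 with 11 astrocytic, 0.36 with choroid plexus, 0.26 with hippocampal neuron, -0.14 with cortex and striatum and -0.36 with meningeal fibroblast genes. Their part in the shared variation was not tested. With the choroid plexus, thalamus or cortex markers as a covariate, 0 of 33 members passed.

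**Figure D4:**
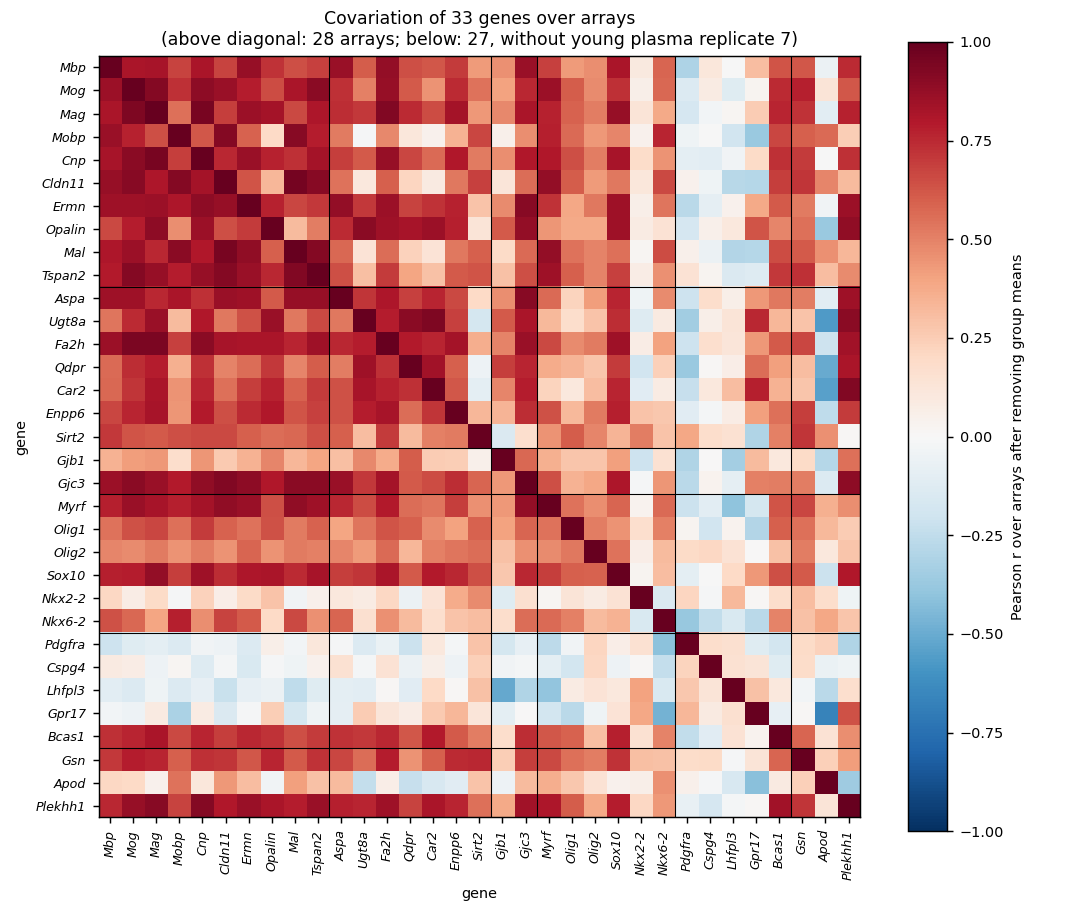
Pearson correlation of each pair of the 33 genes over arrays after removing group means, for 28 arrays above the diagonal and 27 below it, without young plasma replicate 7. The block of 10 sheath genes is red on both sides (median 0.77 and 0.86), and the rows of Pdgfra, Cspg4 and Lhfpl3 are pale.

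Genes outside the list with the pattern most like the sheath mean, by Pearson r over the 28 arrays, were led by Tmem88b (0.925), Gab1 (0.909), an adaptor of receptor kinases, Tmem63a (0.909), Ttyh2 (0.898) and Prr5l (0.897). Plekhb1, Ppp1r14a, an inhibitor of myosin phosphatase, Slc44a1, a choline transporter, and Galnt6, a glycosyltransferase, had 0.887, 0.885, 0.881 and 0.879. Of the 15748 genes that are not members, 32 (0.203%) had an r above 0.8, and the median over them was 0.05. A list of 26 other mature oligodendrocyte genes held 8 of those 32, among them Tmem88b, Tmem63a, Ppp1r14a and Galnt6, and had a median r of 0.63. The median was 0.13 over 17 other precursor genes and 0.07 over 24 signals and receptors that act on the lineage.

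No gene of those 3 lists passed the test either. In the 3 comparisons with PBS 0 of the 26, 17 and 24 genes passed an adjusted p of 0.05, where the share of all genes was 0%. At an unadjusted p under 0.05, 2 of the 67 genes of the 3 lists passed with cord plasma, 2 with young plasma and 3 with old plasma, against 8.74%, 11.2% and 10.8% of all genes, and 0 of these were mature genes. Of the precursor genes, C1ql1, a secreted protein of precursors, was higher with cord plasma at 0.24 (SE 0.09, adjusted p = 0.491), Ptprz1, a receptor phosphatase, lower with young plasma at -0.12 (SE 0.05, adjusted p = 0.418), and Fyn, a kinase of early wrapping, lower with old plasma at -0.07 (SE 0.03, adjusted p = 0.403).

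Of the signals and receptors, Lpar1, a receptor for lysophosphatidic acid on mature oligodendrocytes, had the smallest adjusted p, at -0.30 (SE 0.09, adjusted p = 0.229) with old plasma. The neuregulin co-receptor Erbb2 was at -0.16 (SE 0.07, adjusted p = 0.5) with cord plasma and Fgfr1, a fibroblast growth factor receptor, at -0.15 (SE 0.06, adjusted p = 0.364) with young plasma. Rtn4r, the Nogo receptor, was at 0.11 (SE 0.04, adjusted p = 0.377) with old plasma.

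Young plasma replicate 7 split the members. Against the mean of the other 6 arrays of its group, Ugt8a differed by -1.51 on the log2 scale, Gpr17 by -1.23, Opalin and Plekhh1 -1.15, Car2 -0.97, Aspa -0.85, Gjc3 -0.75 and Ermn -0.65. Apod was at 1.12 above, and Cldn11, Mobp and Mal at 0.31, 0.29 and 0.27. Mog, Olig2, Nkx6-2 and Myrf were within 0.08 of the others. In this array 13 members had the lowest value of the 28, and Sirt2 and Apod the highest, and any other array was lowest for at most 5 members. Microglial markers averaged 7.18 there, against 7.43 to 7.70 elsewhere, and endothelial markers 6.53, against 6.68 to 7.38. Their part in the low values was not tested.

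**Figure D5:**
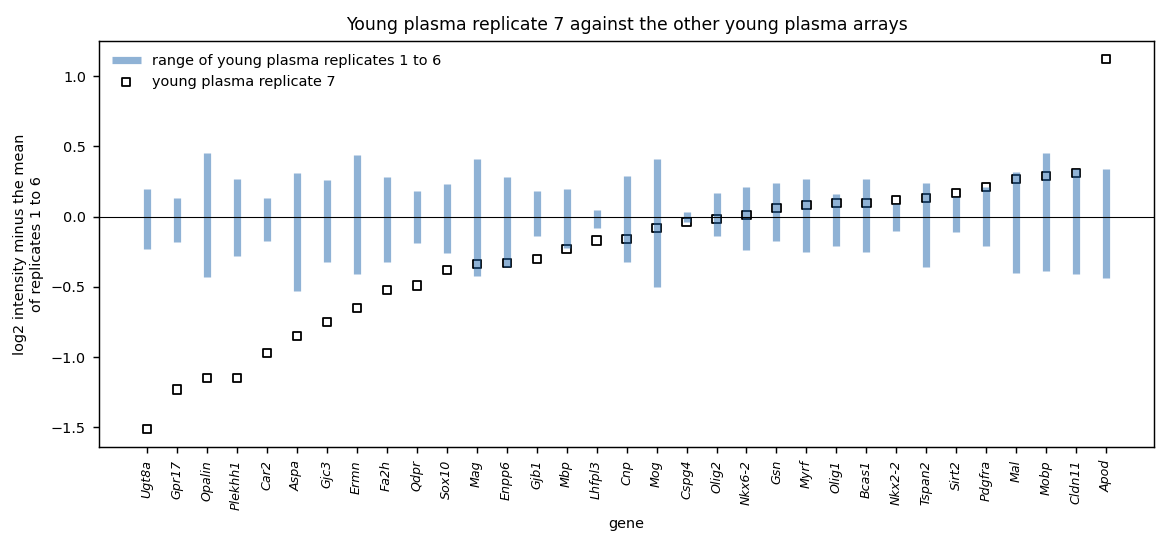
Young plasma replicate 7 (square) and the range of the other 6 young plasma arrays (bar) for each of the 33 genes, as log2 intensity minus the mean of those 6 arrays, sorted by replicate 7. Ugt8a (-1.51) stands at the low end and Apod (1.12) at the high end.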

How the data were processed

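RNA of mouse hippocampus was labelled with biotin and hybridised to Affymetrix whole-transcript arrays, per the labels' protocols. The deposited table holds log2 intensities that the authors computed by RMA, according to the submitters' processing notes, with no version given in those sources. This method equalises the distributions of arrays, so a shift shared by most genes is reduced. The authors' second table gives group means, fold differences and unadjusted p-values, per the file headers, and its means equal those of the value table within 1e-08. Symbols come from that table, in which 26 altered ones were restored. Signal over background, the depth of an array, is not in the files used, and 7 arrays per group limit the precision.

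Rows with a mean under 4.68, the 30th percentile of named rows, were left out, and the row with the highest mean stood for a gene. Limma 3.58.1 in R 4.3.3 fitted 1 mean per group over all 28 arrays with eBayes, with Benjamini-Hochberg adjustment over the 15781 genes and a threshold of 0.05. The fit was tested on simulated data. The members and lists were chosen with earlier results of these data known. Members are described by role, with all array groups in full for 10 chosen genes and for the 3 members with the smallest p in each comparison. Of the lists, the 2 genes with the smallest p in each comparison with PBS could be named, and the 10 genes most like the sheath mean. Text gives part of both, chosen after values were seen. Same-numbered arrays of different groups correlated above 0.1 in 12 of 42 pairs (median 0.02), so replicate numbers were not taken to pair arrays. The alternatives were other filters, rows, normalizations, weights, covariates, models and thresholds, and leaving out each array.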

Additional observations from a re-analysis of the deposited data

Results flagged for a closer look

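In 6 of 132 combinations of a member and a group, 1 array lay so far from the other 6 that its gap to the nearest of them took up most of the group's range (Dixon's 95% critical value). Chance alone gives about 1 in 20 such groups. Of the 6, 4 came from young plasma replicate 7, where Ugt8a, the galactolipid enzyme, was at 7.95, Car2, the carbonic anhydrase, at 9.46, Gpr17, the receptor of committed cells, at 6.12, and Plekhh1 at 6.02, each the lowest of its group. Olig1 was at 8.48 in cord plasma replicate 2, the lowest of a group whose highest array was at 8.64. Apod was at 10.22 in old plasma replicate 1, the highest of its group.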

How the results depend on the processing

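Across 41 other settings, 28 that leave out 1 array and 13 that change the processing or the model, the count of members past the adjusted threshold was 0 in every comparison, also at a threshold of 0.1. The smallest adjusted p of a member in any of them was 0.138, for Lhfpl3 with the 3 plasma groups averaged and the cortex and striatum markers as a covariate. It was 0.159 without PBS replicate 1, 0.248 without young plasma replicate 7 and 0.321 with the replicate number as a block, which changed no call. Member medians had no test. None moved by more than the SD of the member mean between arrays, 0.13. That bound is wide and says little about stability, since the main median farthest from 0 was -0.094, for young against old plasma. Some medians changed sign. The median of cord against young plasma turned from 0.033 to -0.038 with array weights and to -0.010 without young plasma replicate 7, that of young plasma against PBS from -0.041 to 0.005 with array weights, and those of cord plasma against PBS and against old plasma to 0.015 and 0.004 without cord plasma replicate 2. With the 3 plasma groups averaged against PBS the median went from -0.013 to 0.013 with the mean over a gene's rows. The cause was not tested. At an unadjusted p under 0.05 the members ran from 0 to 2 for cord plasma against PBS over the 41 settings, 0 to 3 for young plasma and 1 to 4 for old plasma. Leaving out 1 array gave -0.131 to -0.040 for young against old plasma and 0.014 to 0.078 for old plasma against PBS. Centring arrays on their medians lowered the share of all genes above 0 from 53.3% to 40.6% for cord plasma against PBS and from 52.5% to 39.3% for old plasma.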

Other observations

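Some genes ran against the sheath genes over the arrays. Acvr2a, an activin receptor, had the lowest Pearson r of all 15781 genes with the mean of the 10 sheath genes, at -0.79 after group means were removed. Among the signals and receptors that act on the lineage, Erbb4, a neuregulin receptor that neurons also make, was at -0.52 (-0.55 without young plasma replicate 7), Lingo1, an inhibitor of differentiation that neurons also make, at -0.49 (-0.47), and Bmp4, a ligand that holds precursors back, at -0.42 (-0.44). Fyn had -0.49 (-0.47). On the other side, S1pr5, a sphingosine phosphate receptor, was at 0.80, Erbb3, a neuregulin receptor of glia, at 0.77, and Lpar1 at 0.68. These genes were picked after their values were seen, and the values describe 28 arrays that each share 1 extract across all genes.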
